A study of Mus musculus with 6 samples.

Results

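Stefins and cystatins are protein inhibitors of papain-like cysteine proteases. The members described here are 6 genes of that superfamily, namely Stfa1, Stfa2, Stfa3, Cstb, Cst3 and Cst7, measured in tumour-associated macrophages of mice given PLX3397 or vehicle. They were found as the probe sets of the array that carry one of these symbols, which gave 5 probe sets with exactly 1 symbol and 2 that name several genes, out of 28941 probe sets in all. Stfa1 was reached only through a probe set shared with Cstdc5 and Cstdc6. The members were chosen with the difference between the groups known, so their changes are given as descriptions without a test.

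The cells came from hepa1-6 tumours, a mouse hepatoma line, implanted in the liver of C57BL/6 mice. The PLX3397 group held 3 arrays, from mice given this kinase inhibitor, which acts on CSF1R, FLT3 and KIT, and the vehicle group held 3 arrays, from mice bearing the same tumours without the drug. All macrophages were sorted by flow cytometry, and their total RNA was measured on Affymetrix Mouse Gene 1.0 ST arrays. The sources used here do not give the age and sex of the mice, the dose and duration of treatment, the gate of the sort or the number of mice behind each array, so that p-values reflect only the spread among these 6 samples. The description fields of the samples also carry a second name, of macrophages given LPS and interferon-gamma for the vehicle samples and IL4 for the PLX3397 samples. Those names do not match the sample titles, from which the groups were taken.

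Inhibitors of this superfamily insert a wedge of conserved residues into the active site of cathepsins and block access of the substrate. Type 1 inhibitors, the stefins, lack a signal peptide and act mainly inside cells, whereas type 2 inhibitors, the cystatins, are made with a signal peptide and enter the secretory pathway. Stefin A has 1 gene in humans but a cluster of close copies in the mouse, and these copies are known from neutrophils and other myeloid cells. In macrophages the proteases concerned work in the lysosome, where they degrade proteins, process antigen and activate other enzymes.

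Values are log2 probe set values as deposited, with means ± SD of n = 3 arrays per group, and a change is the PLX3397 mean less the vehicle mean in log2 units, with the standard error (SE) of a limma fit across all probe sets. A value counted as above background when it exceeded a level set on the same array by 1205 probe sets of olfactory and vomeronasal receptors, their 95th percentile, which lay between 3.51 and 3.57. Over all probe sets the median change was 0.03, and 34.7% passed an adjusted p of 0.05, with 17.3% higher and 17.4% lower. Centring each array on its median moved that median change to -0.08 and the share of calls that were higher to 31.8%, against 49.9% as deposited. Of the 5 probe sets with 1 symbol, 3 would have been called higher and 1 lower, and the groups did not overlap in 4. Groups did not overlap in 47.2% of all probe sets, with 25.3% higher and 21.9% lower with PLX3397. Both probe sets with several symbols had higher values in PLX3397 arrays, without overlap. Nothing is read from these counts, because the members were picked on this contrast. Since the samples are bulk RNA of sorted cells, fewer cells of a type and less RNA per cell cannot be told apart.

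Stfa3 had the largest upward change of all probe sets on the array. This stefin A copy was at 11.56, 11.82 and 11.40 on the PLX3397 arrays, against 2.97, 2.75 and 3.01 on the vehicle arrays. All PLX3397 arrays were far above the background level and all vehicle arrays below it, with no overlap. The means were 11.59 ± 0.21 with PLX3397 and 2.91 ± 0.14 with vehicle, a fitted change of 8.68 (SE 0.12). Because no vehicle array exceeded background, the difference is a bound, at least 269.7-fold higher with PLX3397, taken as the mean of the PLX3397 arrays over the mean background level of the vehicle arrays. The spread between PLX3397 arrays, 0.42 from lowest to highest, was small beside that difference.

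**Figure D1:**
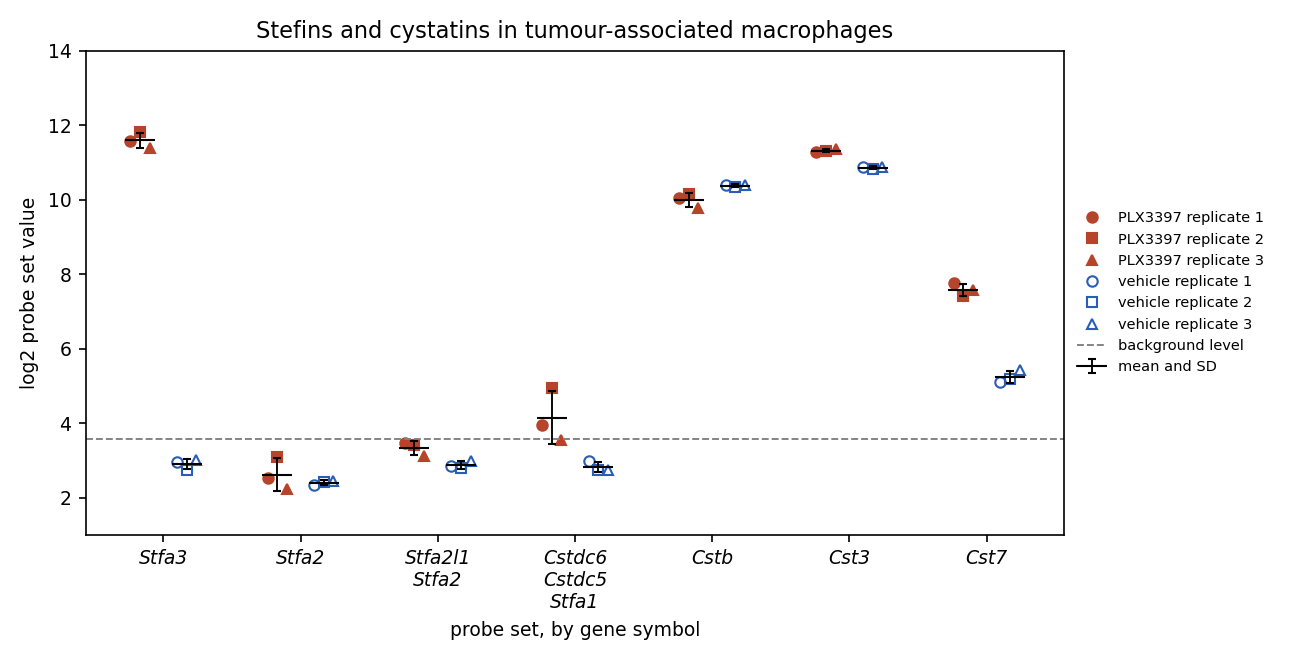
Log2 probe set values (vertical axis) of the stefin and cystatin members (horizontal axis), with filled points for the PLX3397 arrays, open points for the vehicle arrays, and bars for the mean and SD of 3 arrays. The dashed line is the highest background level of the 6 arrays. Stfa3 lies near 11.59 with PLX3397 and under the line with vehicle, Cst7 lies higher with PLX3397, Cst3 slightly higher and Cstb slightly lower.

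Among the other stefin A members no probe set was above background with vehicle, and only the one naming Stfa1 passed it with PLX3397. Stfa2, probed on its own, was at 2.52, 3.10 and 2.22 on the PLX3397 arrays, against 2.34, 2.42 and 2.45 on the vehicle arrays. These ranges overlapped and all 6 values lay below background, so no fold is given. Its change was 0.21 (SE 0.18), and without PLX3397 replicate 2 it was -0.03.

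The probe set shared by Stfa2 and its copy Stfa2l1 was at 3.46, 3.43 and 3.12 with PLX3397, against 2.85, 2.80 and 2.99 with vehicle. The groups did not overlap, but every value was again below background. The probe set shared by Stfa1, Cstdc5 and Cstdc6 was at 3.95, 4.94 and 3.56 with PLX3397, against 2.98, 2.75 and 2.75 with vehicle. Here the groups did not overlap and all PLX3397 arrays passed background, replicate 3 barely, with 3.5572 against a level of 3.5569 on that array, while no vehicle array did. The mean was 4.15 ± 0.71 with PLX3397 and 2.83 ± 0.13 with vehicle, which is at least 1.55-fold higher with PLX3397. Which of the 3 genes the signal comes from cannot be read from a shared probe set, and the copies are close enough in sequence to share probes, a part in these values that was not tested. Cstdc6 also had a probe set of its own, which averaged 3.29 with PLX3397 and 3.21 with vehicle, below background on all arrays.

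Stfa1, Stfa2 and Stfa3 belong to a cluster of 11 stefin genes on mouse chromosome 16, ordered in RefSeq as Csta1, Stfa2l1, Cstdc4, Csta3, Csta2, Stfa1, Cstdc3, Cstdc6, Cstdc5, Stfa2 and Stfa3. The array covers the cluster with 8 probe sets, none of which names Cstdc3 or Cstdc4. None of the 8 was above background on any vehicle array, and 3 were above it on all PLX3397 arrays, those of Stfa3, Csta3 and the Stfa1 group. Csta3, a stefin A copy that is not one of the 6 members, stood under an older symbol on a list of other stefins. It was at 6.47, 7.10 and 5.31 on the PLX3397 arrays, against 3.45, 3.47 and 3.02 on the vehicle arrays. It rose with a change of 2.98 (SE 0.36, limma adjusted p = 1.67e-04), at least 6.86-fold higher with PLX3397, and the groups did not overlap. Its PLX3397 arrays stood in the same order as those of Stfa3, and whether its probes also catch RNA of the much brighter Stfa3 or of other copies was not tested. Of the 3 measured genes on the list of other stefins, Csta3 was the 1 that passed the test, and 0 fell. The median change over the list was 0.09. Over all probe sets 34.7% passed, with 17.3% higher and 17.4% lower, so nothing is read from 1 of 3 genes.

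Csta2 and Cstdc6, the remaining measured genes of that list, were below background on all arrays. Csta2 averaged 2.56 ± 0.25 with PLX3397 and 2.54 ± 0.41 with vehicle (limma adjusted p = 0.942), and Cstdc6 averaged 3.29 ± 0.07 and 3.21 ± 0.05 in the same order (limma adjusted p = 0.431). Csta1, looked at after the values were seen, averaged 2.53 ± 0.15 with PLX3397 and 2.52 ± 0.11 with vehicle. The signal in PLX3397 macrophages was spread unevenly over the probe sets of the cluster. Stfa3 stood at one end of the cluster, Csta3 inside it, and Stfa2, the direct neighbour of Stfa3, was below background. Among the PLX3397 arrays the lowest value fell on replicate 3 in 6 of the 8 probe sets, Stfa3, Stfa2, Csta3 and the Stfa1 group among them, against 43.5% of all probe sets on the array. Of those 6, Stfa2, Csta2 and the probe set shared by Stfa2 and Stfa2l1 were below background on all arrays, so the order of their arrays is not read.

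**Figure D2:**
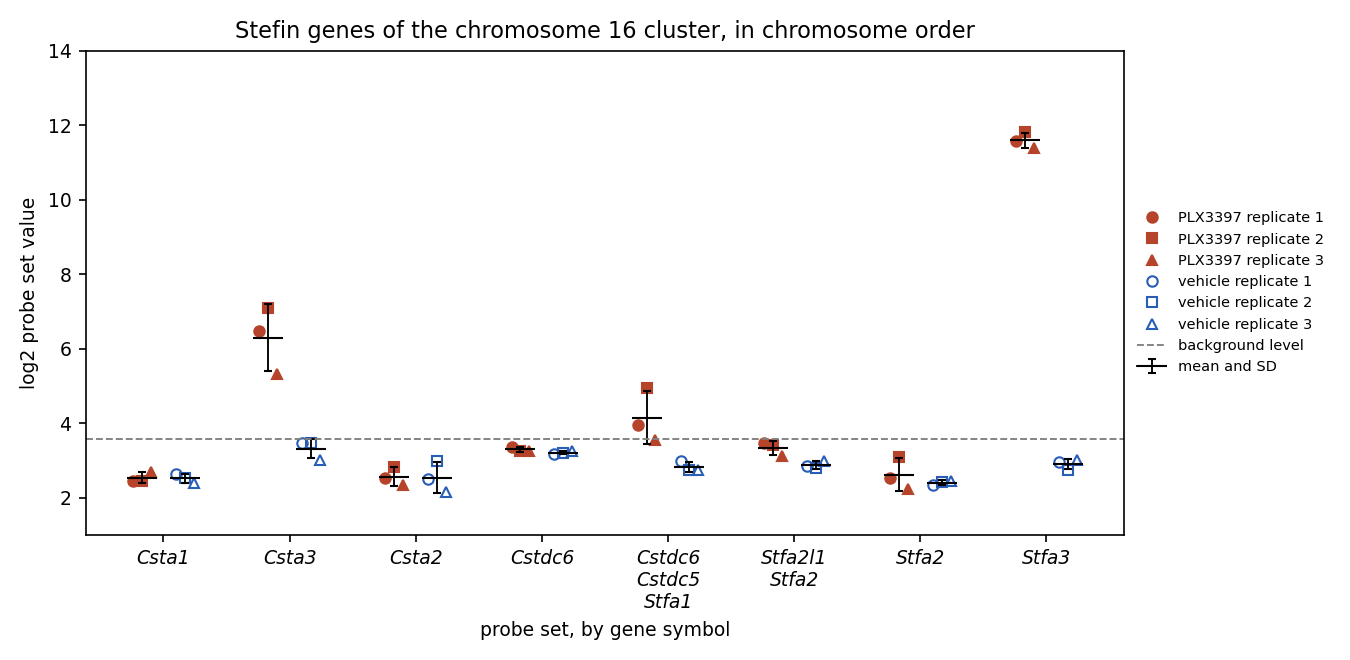
Log2 values (vertical axis) of the 8 probe sets of the chromosome 16 stefin cluster, in chromosome order of the last gene each names (horizontal axis), with filled points for PLX3397 arrays, open points for vehicle arrays and bars for the mean and SD. Vehicle values all lie under the dashed line, the highest background level of the 6 arrays, while Stfa3 and Csta3 lie above it on every PLX3397 array and the Stfa1 group on 2 of 3.

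The promoters of these copies are shown because genes with similar upstream sequence gave such different values. Each is the window from 250 bases before to 30 bases after the transcript start in RefSeq (GRCm38.p6), 5′ to 3′ on the strand of the gene, and capitals mark matches to a set of short motifs searched on both strands. The set held TTGCNNAA for C/EBP factors, TTCNNNGAA for STAT factors together with the same ends around a spacer of 4 bases, TGANTCA for AP-1, GAGGAA for ETS factors of the PU.1 type, and TATAAA for the TATA box.
Stfa3 promoter, chr16:36455363-36455642, minus strand: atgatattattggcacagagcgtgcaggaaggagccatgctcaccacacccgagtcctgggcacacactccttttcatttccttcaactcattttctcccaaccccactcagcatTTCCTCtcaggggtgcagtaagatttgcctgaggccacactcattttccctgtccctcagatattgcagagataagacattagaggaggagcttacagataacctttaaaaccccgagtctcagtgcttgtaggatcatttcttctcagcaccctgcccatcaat
Stfa2 promoter, chr16:36408334-36408613, minus strand: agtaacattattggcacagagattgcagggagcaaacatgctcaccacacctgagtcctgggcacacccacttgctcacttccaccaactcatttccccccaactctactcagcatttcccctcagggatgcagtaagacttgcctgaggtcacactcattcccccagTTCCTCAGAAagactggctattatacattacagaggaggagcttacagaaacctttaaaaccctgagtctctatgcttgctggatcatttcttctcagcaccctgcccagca
Stfa1 promoter, chr16:36276898-36277177, plus strand: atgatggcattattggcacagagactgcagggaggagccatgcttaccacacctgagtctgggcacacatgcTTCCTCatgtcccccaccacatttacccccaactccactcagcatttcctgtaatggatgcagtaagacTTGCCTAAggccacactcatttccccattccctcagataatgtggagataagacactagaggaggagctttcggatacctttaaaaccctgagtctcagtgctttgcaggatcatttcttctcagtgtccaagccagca
Csta3 promoter, chr16:36210153-36210432, plus strand: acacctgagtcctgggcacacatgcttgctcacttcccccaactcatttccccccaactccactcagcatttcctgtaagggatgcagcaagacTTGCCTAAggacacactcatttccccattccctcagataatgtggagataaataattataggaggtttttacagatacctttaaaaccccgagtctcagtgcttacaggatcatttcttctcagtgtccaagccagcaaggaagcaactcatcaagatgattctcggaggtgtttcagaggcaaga
Over their alignment without end gaps, the Stfa3 window was 82.6% identical to that of Stfa2, 83.4% to that of Stfa1 and 82.2% to that of Csta3. Stfa1 and Csta3 were 90.1% identical. The windows of Cst3 and Cst7, aligned in the same way, were 48.6% identical. Stfa3 and Stfa1 each hold the ETS letters (GAGGAA, here as the reverse complement TTCCTC), which 26.0% of 32851 promoter windows also hold. Stfa1 and Csta3 share TTGCCTAA, a match to the C/EBP letters found in 10.4% of windows, and Stfa3 has none. In Stfa2 the ETS match overlaps a match to the longer STAT letters, which 6.5% of windows hold. These matches describe the letters only.

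Cstb, which encodes stefin B, the widely expressed type 1 inhibitor of cytosol and nucleus, was slightly lower with PLX3397. It was at 10.05, 10.14 and 9.79 on the PLX3397 arrays, against 10.40, 10.35 and 10.39 on the vehicle arrays. Every PLX3397 array lay below every vehicle array, with replicate 3 the lowest. The means were 10.00 ± 0.18 with PLX3397 and 10.38 ± 0.03 with vehicle, a change of -0.38 (SE 0.10), or 1.31-fold lower with PLX3397. Leaving out PLX3397 replicate 3 gave a change of -0.28. Stefin B was above background on all 6 arrays.

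Cst3, encoding cystatin C, the abundant secreted inhibitor of many cells, was slightly higher with PLX3397. Its values were 11.27, 11.31 and 11.36 on the PLX3397 arrays, against 10.89, 10.81 and 10.88 on the vehicle arrays. The groups did not overlap and the arrays within a group lay within 0.081 of each other. The mean was 11.31 ± 0.04 with PLX3397 and 10.86 ± 0.04 with vehicle, a change of 0.45 (SE 0.07), or 1.37-fold. With each array centred on its median the change was 0.34, a move larger than the spread between replicates.

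Cst7, encoding cystatin F, is the type 2 inhibitor restricted largely to blood cells, where much of it is directed to lysosomes and needs proteolytic processing to inhibit cathepsin C. It was at 7.75, 7.41 and 7.58 on the PLX3397 arrays, against 5.11, 5.18 and 5.42 on the vehicle arrays. All 6 values were above background and the groups were well apart. The mean was 7.58 ± 0.17 with PLX3397 and 5.24 ± 0.16 with vehicle, a change of 2.34 (SE 0.11), or 5.08-fold. Its lowest PLX3397 value was on replicate 2.

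The Cst7 promoter is shown because its matches lie at the transcript start. The window has the same extent and build as above.
Cst7 promoter, chr2:150570165-150570444, plus strand: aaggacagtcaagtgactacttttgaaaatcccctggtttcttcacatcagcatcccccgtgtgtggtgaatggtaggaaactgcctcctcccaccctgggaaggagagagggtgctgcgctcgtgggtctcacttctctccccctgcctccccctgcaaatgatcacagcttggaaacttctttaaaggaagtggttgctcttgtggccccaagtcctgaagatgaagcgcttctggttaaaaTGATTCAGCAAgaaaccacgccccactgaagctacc
In it a match to the AP-1 letters, which 7.46% of windows hold, overlaps one to the C/EBP letters on the other strand. The AP-1 match ends on the first transcribed base and the C/EBP match runs past it. The window of Cst3, which lies on the same chromosome, holds the ETS letters and no match to the other motifs searched.

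Cst3 lies on chromosome 2 among cystatin genes best known from the male reproductive tract, and these gave almost no signal. Of 9 measured genes on a list of other secreted cystatins, 1 rose, 0 fell and 8 did not pass the test, with a median change of 0.04, against 17.3% of all probe sets called higher. The rise was that of Cst11, a cystatin of the epididymis, at 3.81, 3.93 and 4.08 on the PLX3397 arrays, against 3.52, 3.50 and 3.56 on the vehicle arrays. That is a change of 0.41 (SE 0.09, limma adjusted p = 0.005) close to the background level, which 2 of the vehicle arrays exceeded. The other 8, among them the skin inhibitor gene Cst6, were below background on all arrays. Fetuins and kininogens, liver-made plasma proteins with cystatin domains, were below background on all arrays in 4 of 5 cases. By limma, 0 of these 5 passed the adjusted threshold and 1 had an unadjusted p under 0.05, and with quantile normalisation 1 did (Kng1).

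The proteases these inhibitors act on changed in both directions. Of 11 such proteases, cysteine cathepsins and legumain, 5 rose, 3 fell and 3 did not pass the test, with a median change of 0.19 and 34.7% of all probe sets called. Ctsk, encoding cathepsin K, the collagen-degrading protease of osteoclasts, was at 9.45, 9.29 and 9.36 on the PLX3397 arrays, against 5.40, 5.81 and 5.63 on the vehicle arrays. Its change of 3.75 (SE 0.11, limma adjusted p = 2.87e-08) was the largest of the list. Ctsh, an aminopeptidase that cystatin F can inhibit, averaged 9.04 ± 0.21 with PLX3397 and 8.15 ± 0.06 with vehicle, a change of 0.89 (SE 0.11, limma adjusted p = 1.64e-04). Ctsl, an endopeptidase of lysosomes, averaged 11.94 ± 0.09 with PLX3397 and 11.30 ± 0.06 with vehicle (change 0.64, SE 0.08). Ctss, the protease that trims the invariant chain in antigen-presenting cells, rose by 0.60 (SE 0.08), and Ctsf, a cathepsin with its own cystatin-like domain, by 0.44 (SE 0.10).

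Cathepsin C, legumain and cathepsin O were lower with PLX3397. Ctsc, whose product activates the serine proteases of granules, averaged 10.28 ± 0.12 with PLX3397 and 10.64 ± 0.07 with vehicle, a change of -0.36 (SE 0.09, limma adjusted p = 0.011). Lgmn, encoding legumain, an asparaginyl endopeptidase that cystatin C inhibits through a second site, averaged 9.80 ± 0.09 with PLX3397 and 10.42 ± 0.06 with vehicle (change -0.62, SE 0.08, limma adjusted p = 2.90e-04). Ctso averaged 6.40 ± 0.12 with PLX3397 and 7.37 ± 0.05 with vehicle (change -0.97, SE 0.09). Ctsb and Ctsz were bright in both groups and did not pass the test, with changes of 0.15 (SE 0.07, limma adjusted p = 0.144) and 0.12 (SE 0.07, limma adjusted p = 0.247). Ctsw, a protease of cytotoxic lymphocytes, was below background on all arrays and did not pass the test.

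**Figure D3:**
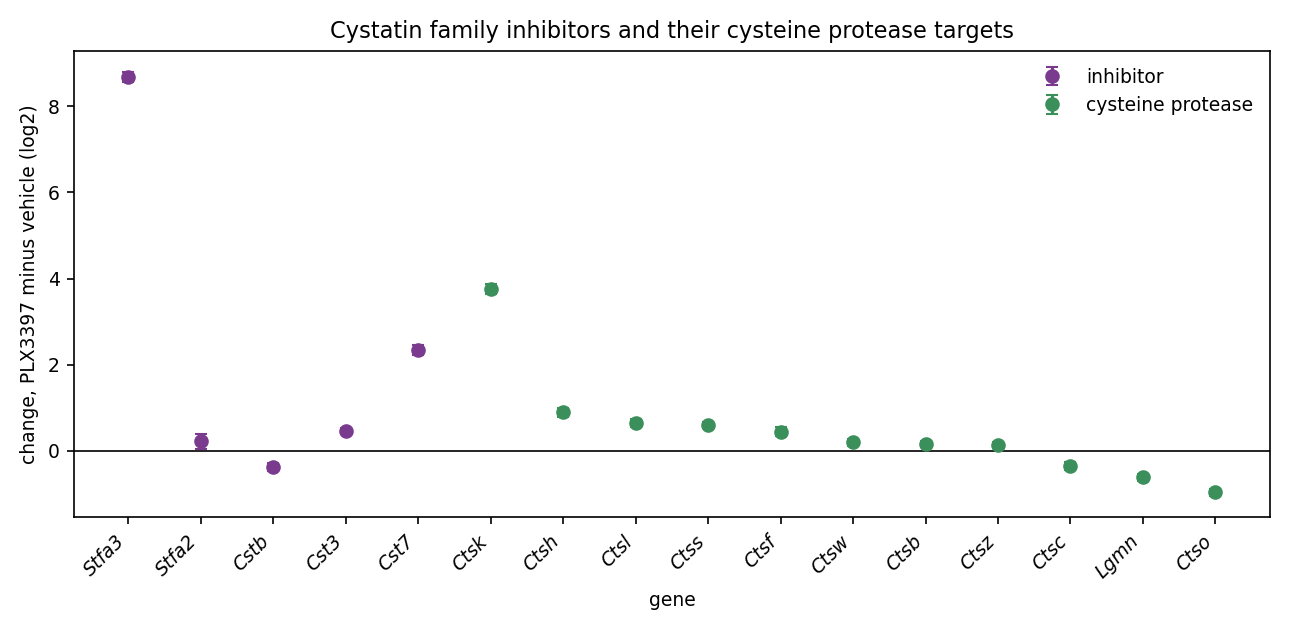
Change from vehicle, PLX3397 minus vehicle on the log2 scale (vertical axis), for the 5 members with a probe set of their own and for 11 cysteine proteases (horizontal axis), with bars for the SE of the limma fit over 3 arrays per group. Stfa3 stands at 8.68, a fitted value whose vehicle side is below background, Ctsk at 3.75 and Cst7 at 2.34, and the other points lie between -0.97 and 0.89.

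Of 20 measured genes on a list of serine and metalloprotease inhibitors and latexin, 9 rose, 2 fell and 9 did not pass the test, with a median change of 0.26, against 17.3% of all probe sets called higher and 17.4% lower. Wfdc21, a whey acidic protein family member, had a change of 3.46 (SE 0.15). Serpinb1a, an inhibitor of neutrophil serine proteases, was not above background on any vehicle array and at least 2.55-fold higher with PLX3397. Spint1, an inhibitor of membrane-bound serine proteases, averaged 6.28 ± 0.25 with PLX3397 and 4.59 ± 0.26 with vehicle, and Timp1, an inhibitor of metalloproteinases, averaged 8.57 ± 0.25 with PLX3397 and 7.26 ± 0.64 with vehicle. Of 15 measured genes known to accompany Cst7 in activated microglia, 10 rose, 2 fell and 3 did not pass the test (Lpl, Tyrobp and Fabp5), with a median change of 0.59, beside the same 17.3% and 17.4% of all probe sets. Itgax rose by 3.04, Clec7a by 2.89, while Apoe fell by 4.52 and Igf1 by 2.72. The changes of Itgax and Apoe were known from earlier results of these data.

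Markers of the sorted cell type were present in both groups. Of 13 macrophage markers 12 were above background on all 6 arrays, and Cd163 was below it on all. Of the 13, 3 rose and 6 fell, against 17.3% and 17.4% of all probe sets. Those that fell were C1qb (change -2.64), C1qc (-2.34), C1qa (-2.00), Fcgr1 (-0.79), Adgre1 (-0.42) and Mertk (-0.37). Mrc1 (1.26), Itgam (0.97) and Cd14 (0.55) rose. The summed linear values of the 13 were 21544 to 23245 on the PLX3397 arrays and 22137 to 22606 on the vehicle arrays. Their mean log2 values did not overlap, at 8.69 to 8.96 with PLX3397 and 9.29 to 9.32 with vehicle. Stfa genes are also neutrophil transcripts, so neutrophil markers are given beside them. Of 20 such genes 9 were higher and 1 was lower, against 17.3% and 17.4% of all probe sets, and 7 were below background on all arrays, namely Ly6g, Retnlg, Cxcr2, Ngp, Ltf, Elane and Ctsg. The largest changes were those of Trem1, an amplifier of myeloid activation, which was at least 44.4-fold higher with PLX3397, and of Mmp8, a collagenase of neutrophil granules, which averaged 11.68 ± 0.06 with PLX3397 and 6.20 ± 0.09 with vehicle. The gene that fell was Csf3r, the receptor of the granulocyte growth factor G-CSF, which averaged 7.76 with PLX3397 and 9.32 with vehicle (change -1.55, SE 0.13, limma adjusted p = 1.77e-05). Csf3r, Ly6g, S100a8, S100a9, Camp, Mpo, Prtn3, Lcn2 and Mmp9 are named after their values were seen. Ly6g, the antigen that defines mouse neutrophils, averaged 2.76 ± 0.13 with PLX3397 and 2.43 ± 0.09 with vehicle, and passed the test as higher within the background range (change 0.33, limma adjusted p = 0.021). S100a8, a granulocyte and monocyte calcium-binding protein gene, averaged 8.74 ± 0.53 with PLX3397 and 7.22 ± 0.05 with vehicle (change 1.52, limma adjusted p = 4.07e-04). S100a9 averaged 4.36 ± 0.03 with PLX3397 and 4.03 ± 0.36 with vehicle and did not pass the test (change 0.33, limma adjusted p = 0.130). Camp, Mpo, Prtn3 and Lcn2 did not pass it either. The summed linear value of the 20 markers, 2 to the power of each log2 value, was 14931 to 17841 on the PLX3397 arrays and 8925 to 9025 on the vehicle arrays. The brightest of the 20 with PLX3397, which weigh most in that sum, were Lcn2, Mmp9 and Mmp8. Lcn2 averaged 12.53 with PLX3397 and 12.34 with vehicle, and Mmp9 11.98 and 11.37 in the same order. The part of such cells in the stefin values was not tested.

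Markers of other cells also differed between groups in part, and those named here were chosen after their values were seen. Their counts are to be read beside the 17.3% of all probe sets called higher and 17.4% called lower. Dendritic cell markers rose in 5 of 11 cases and fell in 1, with summed linear values of 1854 to 2443 on PLX3397 arrays and 333 to 376 on vehicle arrays. Itgax, an integrin gene that macrophages also express, was the brightest of them, at 10.86 ± 0.18 with PLX3397 and 7.82 ± 0.14 with vehicle. Ccr7 averaged 7.52 ± 0.66 with PLX3397 and 4.17 ± 0.35 with vehicle (change 3.35, limma adjusted p = 1.91e-05). Zbtb46 rose by 0.39 (limma adjusted p = 0.003) and Batf3 by 0.45 (limma adjusted p = 0.0098), both above background on all arrays. Itgae also rose, below background on all arrays, and the gene that fell was Ccr9. The lineage markers Flt3, Xcr1, Clec9a, Cd209a and Siglech did not pass the test, and Xcr1, Clec9a and Siglech were below background on all arrays.

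Endothelial markers rose in 5 of 9 cases and fell in 0, with summed linear values of 693 to 729 on PLX3397 arrays and 344 to 375 on vehicle arrays. Mast cell, basophil and eosinophil markers rose in 4 of 12 cases and fell in 1, with sums of 413 to 573 on PLX3397 arrays and 176 to 199 on vehicle arrays. Hdc, encoding the enzyme that makes histamine, had a change of 3.59 (SE 0.25), and Gata2, a transcription factor gene of these lineages, one of 3.22 (SE 0.18). Kit, the stem cell factor receptor gene, rose by 1.08 and Siglecf, a lectin gene of eosinophils, by 0.44, while Ccr3, the eotaxin receptor gene, had a change of -2.25 (SE 0.20). Cpa3, Mcpt8, Mcpt4, Fcer1a, Ms4a2 and Prg2 were below background on all arrays. Of the T and NK cell markers 1 of 12 rose (Cd2) and 1 fell (Klrk1), and of the B cell markers 2 of 6 rose (Ms4a1 and Cd79b). Of these, Cd2, Klrk1 and Ms4a1 were below background on all arrays, and Cd79b was above it on all. Of 10 hepatocyte and hepatoma markers 0 passed the limma test, with 0 at an unadjusted p under 0.05.

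Of 9 fibroblast and stellate cell markers 0 rose and 1 fell (Col1a1, change -0.60), against 17.3% and 17.4% of all probe sets. Their summed linear values were 536 to 1283 on PLX3397 arrays and 516 to 742 on vehicle arrays. PLX3397 replicate 3 stood apart from the other PLX3397 arrays in several of them. Acta2, a smooth muscle actin gene, was at 6.94, 7.01 and 8.79 on the PLX3397 arrays, and Des, encoding desmin, at 3.81, 3.68 and 4.95. Rgs5, a pericyte gene, was at 2.87, 2.88 and 4.23, and Lum, encoding lumican, at 2.76, 2.96 and 3.71. Vehicle means were 7.11 for Acta2, 3.68 for Des, 2.89 for Rgs5 and 2.75 for Lum. Dcn, the brightest of the list, was at 7.64, 8.61 and 9.09 on the PLX3397 arrays. On the vehicle arrays Dcn was at 6.91, 7.46 and 8.12, and it did not pass the test. PLX3397 replicate 3 is the array with the lowest PLX3397 value in 6 of the 8 stefin cluster probe sets, against 43.5% of all probe sets. Of those 6, only Stfa3, Csta3 and the Stfa1 group were above background on PLX3397 arrays. The part of such cells in those values was not tested.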

How the data were processed

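For 6 Affymetrix arrays the authors deposited 1 log2 value per probe set and array. The base of the logarithm was read from the values, and MAS5 is the tool named, without its role or version, in the submitters' processing notes. The sources used here do not give the summarisation, normalisation or genome build, and no hybridisation date was available to test as a batch. Array medians lay between 4.21 and 4.35, a difference under the 0.5 set as the limit for quantile normalisation, and no further normalisation was applied. Precision is limited by having 3 arrays per group, with which an exact permutation test cannot go below p = 0.1.

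Groups and replicate numbers came from the sample titles. PLX3397 was compared with vehicle by a two-sided moderated test in limma 3.58.1 (R 4.3.3), with a model holding the group alone, fitted on all 28941 probe sets, with Benjamini-Hochberg adjustment over all of them. The fit was tested on simulated data. Symbols came from the platform annotation, in which 21789 probe sets carry 1 symbol, 1621 several and 5531 none. Gene lists were counted on the brightest probe set with 1 symbol per gene, and 165 of 184 list entries were measured, 2 of them through a synonym. Named genes were all member probe sets, list genes of the cystatin family and target proteases past the threshold, up to 4 genes with the largest change of other lists, and the 3 genes most like each member. The members and lists were chosen with earlier results of these data known. Promoters came from RefSeq (GRCm38.p6) and were aligned with Biopython 1.88. Figures were drawn with matplotlib 3.10.9. Alternatives covered normalisation, filters on dim probe sets, the features tested, variance models, the replicate number and leaving out each array.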

Additional observations from a re-analysis of the deposited data

How the results depend on the processing

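Changing the normalisation, the filters, the features tested or the variance model, or leaving out any 1 array, kept the direction of every member change except that of Stfa2, which is below background on all arrays. Without PLX3397 replicate 2 the change of Stfa2 was -0.033, and over the fits that leave out 1 array it ran from -0.033 to 0.41. The change of Cst3 moved to 0.34 with arrays centred on their medians, and 1 of the fetuins and kininogens passed the test with quantile normalisation, against 0 as deposited. The change of Stfa3 ran from 8.57 to 8.78 over all alternatives, that of Cst7 from 2.23 to 2.44, that of Cstb from -0.49 to -0.28 and that of the Stfa1 group from 0.93 to 1.62. Over all probe sets 8396 to 9322 passed the threshold when 1 array was left out, against 10031 with all arrays. The target protease count was 8 in every alternative but the variance trend, where it was 9. Cd63, a tetraspanin of the Cst7-associated list, lost its call with centred arrays (change 0.23, limma adjusted p = 0.063). Deviations from the group means correlated at 0.0038, 0.0011 and -0.034 across probe sets for the 3 replicate numbers, so no effect shared within a number was seen. Whether the samples were paired by design cannot be read from these correlations. With the replicate number as a block, 9424 probe sets passed. Both filters on dim probe sets removed Stfa2 and the probe set it shares with Stfa2l1, the filter on the mean also removed the Stfa1 group, and keeping the brightest probe set per gene left out both shared probe sets, so these gave no value there.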

Other observations

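The genes whose profiles over the 6 arrays lay closest to those of the members are given as a description over 6 arrays in 2 groups. Likeness was the root-mean-square difference between profiles, each taken as differences from its own mean. For Stfa3 the closest were the chemokine gene Ccl17 (0.76 log2), the co-stimulatory receptor gene Tnfrsf9 (1.15) and Plet1 (1.36). The values of Stfa3 on vehicle arrays are below background, and since its change is the largest on the array these distances partly reflect that size. For Cst7 they were Pmepa1 (0.07), the cytosolic DNA response gene Sting1 (0.08) and Stac2 (0.09). For Cst3 they were Gfpt2 (0.016), the checkpoint clamp gene Rad9a (0.018) and Gabarap (0.020), and for Cstb they were Fau (0.022), the transcription factor gene Yy1 (0.022) and Elavl1 (0.024). For Stfa2, below background, they were Itpripl2 (0.066), Sox30 (0.090) and Fam43a (0.10).

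The 3 nearest measured genes on each side of the member loci were looked at after the values were seen, to be read beside the 34.7% of all probe sets that passed the test. Next to the stefin cluster on chromosome 16, 2 of 6 passed and both were higher. Fam162a, a gene induced by low oxygen, averaged 9.66 ± 0.53 with PLX3397 and 7.43 ± 0.02 with vehicle (change 2.23, limma adjusted p = 3.45e-05), and Cd86, a co-stimulatory ligand gene, averaged 7.07 ± 0.43 with PLX3397 and 4.56 ± 0.29 with vehicle (change 2.51, limma adjusted p = 1.41e-05). Ccdc58, Wdr5b, Casr and Ildr1 did not pass the test, with changes from -0.27 to 0.11. Beside Cst7 on chromosome 2, the acetate-activating enzyme gene Acss1 rose by 2.61 (limma adjusted p = 6.31e-07) and Apmap by 0.77 (limma adjusted p = 7.44e-04), and 4 other measured neighbours did not pass the test. Beside the cystatin cluster with Cst3, Gzf1 had a change of -0.92 (limma adjusted p = 7.70e-05), and beside Cstb on chromosome 10, Pdxk had one of -0.70 (limma adjusted p = 3.78e-04), while the 5 other measured neighbours at each of these loci did not pass.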
